A study of Cucumis melo with 12 samples.

Results

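The genes described here are melon genes that were strongly lowered in radicles from seeds treated with a high dose of *B. velezensis* FZB42. A gene belonged to the group if it carried a MELO3C identifier, was on the authors' high-dose radicle list, was on neither the low-dose radicle list nor the mock seed list, and had a log2((high dose + 1)/(mock + 1)) under -1.5. The rule gave 157 genes of the 2943 MELO3C identifiers on the high-dose list, and of 3256 identifiers on the 4 lists used here. The members were thus chosen by the very difference that is described below, and no test was made of it.

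Seeds of *C. melo* var. Rochet Panal were surface sterilized and immersed for 90 min in a suspension of the bacterium, at a log10 CFU per ml of 8 (high dose) or 7 (low dose), or in water (mock). Radicles of 5 days, grown in the dark on moist filter paper, and seeds were sequenced, with 2 libraries for each of the 6 groups. The authors deposited 1 value per gene and group for selected genes only, so there is no value per library and no replicate error, and a difference between groups could not be set against the spread between libraries. The values are headed FPKM, but a single mock value recurs in up to 46 radicle genes, which would be unusual for values divided by gene length. They are treated as a relative signal whose scale is not given, and their order among genes is not an order of transcript numbers.

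The radicle is the embryonic root and the first organ to leave the seed at germination, and its early growth comes from cells that elongate and from divisions at the tip. *B. velezensis* FZB42 is a root-colonizing bacterium that secretes cyclic lipopeptides (surfactin, fengycin and bacillomycin D), amphiphilic molecules that act on membranes. The radicles were sequenced whole, so fewer cells of a type that carries a transcript and less of that transcript per cell cannot be told apart.

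Every member was present in mock radicles, as the rule requires, and most members were reduced without coming near 0. At the high dose 150 of the 157 were above 0, and 35 kept less than 20% of the mock value. The mock value ranged from 12.0 to 34435, with a median of 719. The high-dose value ranged from 0 to 7768, with a median of 193. On the log2 scale the difference ran from -5.61 to -1.501 with a median of -1.81, compared with a median of -0.79 over the 2689 MELO3C genes of the high-dose list that were on neither other list, and the high-dose value was a median of 28.4% of mock. The middle of the group was narrow, with quartiles at 21.7% and 33.0% of mock, and the long tail lay on the side of the deeper losses.

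Lowered values were common on the high-dose list. Of all 2943 MELO3C genes on it, 63.6% had a lower value than mock, and 177 genes (6.01%) passed the log2 of -1.5. After the genes on the other lists were set aside, 157 of 2689 genes (5.84%) remained, against 1650 genes that were lowered by less and 882 that were above mock. The less lowered genes kept a median of 53.6% of the mock value, and none kept more than 65.3%, whereas the members kept at most 35.3%. The rule divides the lowered genes by this same ratio, so that contrast was set in advance. The number of genes past -1.5 depends on how the lists are scaled: the listed genes above 0 in both groups had a median log2 of -0.79, and once that median was removed (median ratio scaling) 36 genes passed -1.5, all of them members, and the members had a median of -1.03. All 157 members stayed below mock under that scaling, which follows from its size. The median removed is that of selected genes, so it is no measure of an offset between libraries. The genes selected in the paper that were above 0 in both groups were MELO3C002457 (-1.05), MELO3C008512 (1.91) and MELO3C014630 (2.46). Their log2 ratios as listed lie close to the paper's own. Both come from the same libraries, so this closeness does not bear on which scaling is apt.

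**Figure D1:**
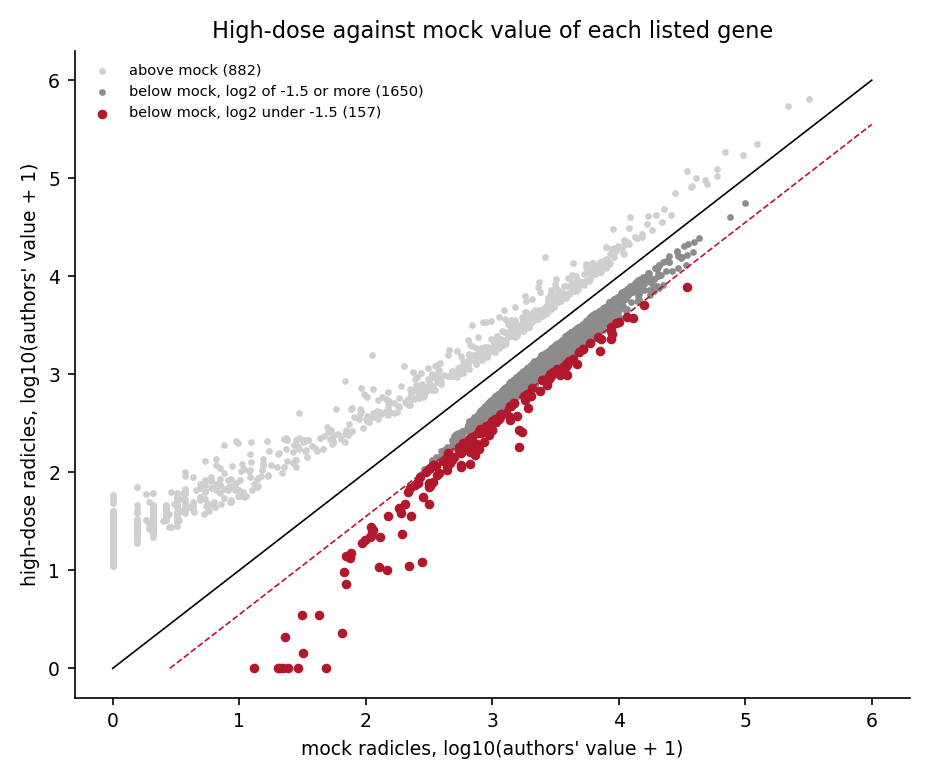
Authors' value of each gene in high-dose radicles (y axis) against mock radicles (x axis), both as log10(value + 1), for the 2689 MELO3C genes of the high-dose list on neither other list. Red points are the 157 members, which lie under the dashed line (log2 of -1.5), dark grey points the 1650 other lowered genes, pale points the 882 genes above mock, and the solid line marks equal values. The red points bend away from the dashed line at low mock values, where 7 of them reach 0 at the high dose.

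The threshold itself fell in a continuous part of the list. Just inside it were MELO3C004421 (727 at the high dose and 2059 in mock, a log2 of -1.501), MELO3C011291 (1138 and 3234, a log2 of -1.506) and MELO3C025323 (878 and 2495, a log2 of -1.506). Just outside it, and not members, were MELO3C020270 (1117 and 3157), MELO3C014411 (95.9 and 272) and MELO3C025464 (1623 and 4574), with log2 values from -1.499 to -1.494. These genes kept between 35.2% and 35.5% of the mock value on both sides of the threshold. Of the members, 74 lay between -1.75 and -1.5 and a further 24 between -2 and -1.75. The group is therefore a range cut from one end of a distribution, with no gap at its upper edge.

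Beyond that edge the group thinned out quickly. A log2 under -2 was met by 59 members (2.28% of all MELO3C genes on the list passed it), a log2 under -3 by 19 (0.782% of the list) and a log2 under -4 by 10 (0.408% of the list). In terms of remaining signal, 89 members kept less than 30% of the mock value, 59 less than 25%, 35 less than 20%, 17 less than 10% and 12 less than 5%.

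The size of the loss went with the mock level. The 19 members with a mock value under 100 kept between 0% and 19.6% of mock, with a median of 4.89%. The 76 members from 100 to 1000 kept 4.01% to 34.9% (median 26.7%), the 57 members from 1000 to 10000 kept 11.3% to 35.3% (median 32.3%) and the 5 members from 10000 upwards kept 22.6% to 34.0% (median 32.2%). Across the 157 members the Spearman correlation between the mock value and the remaining percentage was 0.632, and 0.578 across the 150 members above 0 at the high dose. Both measures hold the same mock value, and genes are not independent replicates.

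The list itself had a floor that moved with the level. Of the 1807 lowered genes on neither other list, 0 had a mock value under 10, and all 19 with a mock value under 100 were members. From 100 to 1000, 76 of 254 listed lowered genes (29.9%) were members, from 1000 to 10000 57 of 1384 (4.12%), and from 10000 upwards 5 of 150 (3.33%). The smallest loss found on the list left 8.30% of mock for genes from 10 to 50, 19.6% for genes from 50 to 100, 55.3% for genes from 100 to 1000 and 65.3% for genes from 1000 to 10000. Genes of low level that lost less than this have no value here, so the deep losses at low level cannot be read as a stronger response of such genes.

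**Figure D2:**
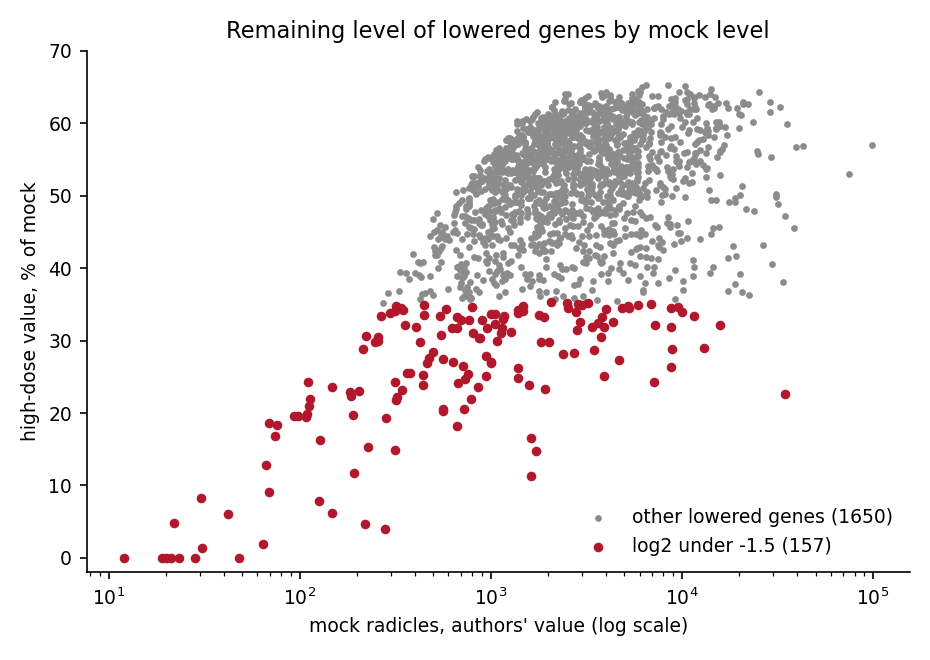
High-dose value as a percentage of mock (y axis) against the mock value on a log scale (x axis) for the 1807 lowered genes on neither other list, with the 157 members in red and the 1650 others in grey. The upper edge of the points climbs with the mock value, from 8.30% for mock values of 10 to 50 to 65.3% for mock values of 1000 to 10000, and every lowered gene with a mock value under 100 is a member.

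Among the members, high-dose values that came close to 0 were few, and they belonged to genes that were already low in mock. At the high dose 7 members were listed at 0 (0.272% of MELO3C genes on the list were at 0), 1 was above 0 and under 1, 8 were from 1 to 10, 34 from 10 to 100, 80 from 100 to 1000 and 27 at 1000 or more. The 16 members under 10 (0.612% of MELO3C genes on the list were under 10) had mock values from 12.0 to 147, with a median of 30.7. They held 0.334% of the signal that the whole group lost. Outside the group, MELO3C030347 was listed at 0 at the high dose from a mock value of 989. XLOC_031706 stood at 2.95 from a mock value of 625.

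The 7 members listed at 0 at the high dose had modest values in mock. MELO3C027639 had a high-dose value of 0 and a mock value of 47.9, the highest mock value of these genes. MELO3C013273 and MELO3C010820 were listed at 0 at the high dose, with 28.4 and 23.4 in mock. The remaining 4 genes lay close together in mock, apart from the lowest of them. MELO3C035608, MELO3C026305 and MELO3C031411 were listed at 0 at the high dose, with 21.2, 19.9 and 19.1 in mock. MELO3C002545 had a high-dose value of 0 and a mock value of 12.0, which was the lowest mock value of all 157 members. For these genes no fold is given, and their log2 values, from -5.61 to -3.71, follow from the mock value and the added 1 alone.

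The smallest value above 0 on the whole high-dose list was that of a member, MELO3C013295, with 0.426 at the high dose and 30.9 in mock (1.38%). MELO3C001701 stood at 1.08 at the high dose, against 22.0 in mock (4.89%), and MELO3C016257 at 1.28 and 64.5 (1.98%), a log2 of -4.85, lower than that of 5 of the genes at 0. MELO3C031363 and MELO3C031615 shared a single high-dose value of 2.53, with mock values of 30.5 and 42.1. Of the 19 identifiers of the whole high-dose list with a high-dose value under 10, 16 were members. Lowered genes of low level are on the list only where the loss was deep, so this count follows largely from how the list is made up. The 882 genes above mock that were on neither other list had high-dose values from 10.1 upwards.

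The other members under 10 started from higher mock values. MELO3C031507 stood at 6.23 at the high dose, against 68.7 in mock, and MELO3C029934 at 8.51 and 66.4. MELO3C017822 stood at 9.09 at the high dose, against 147 in mock, and MELO3C028967 at 9.85 and 126. These genes kept 6.19% to 12.8% of the mock value. They and the 2 genes at 2.53 were named after their values had been seen.

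**Figure D3:**
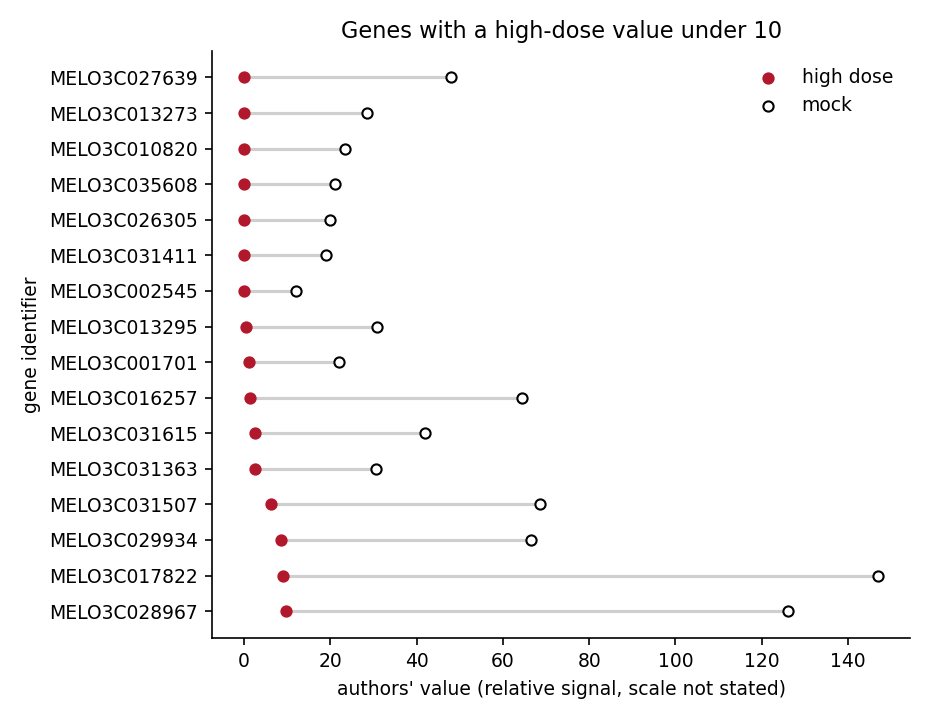
Authors' value (x axis, relative signal) in high-dose radicles (red) and mock radicles (open circles) for the 16 members with a high-dose value under 10, ordered by the high-dose value. At the top 7 genes are at 0 at the high dose with mock values from 12.0 to 47.9, and at the bottom MELO3C017822 and MELO3C028967 have the highest mock values of the 16, 147 and 126.

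Among the members, deep losses from a higher mock value were rarer. MELO3C034130 stood at 11.2 at the high dose, against 279 in mock (4.01%, a log2 of -4.52). MELO3C012923 stood at 10.2 at the high dose, against 220 in mock (4.63%, a log2 of -4.30). These were the only members with a mock value of 200 or more among the 10 lowest log2 values, and both kept a high-dose value above 10. Their log2 values, MELO3C034130 first, were -4.63 and -4.42 with a pseudocount of 0.1, -3.77 and -3.51 with one of 10, -5.39 and -5.27 under quantile normalization, and -3.79 and -3.57 under median ratio scaling.

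Among the 62 members with a mock value of 1000 or more, 2 kept less than 15% of it and 3 less than 20%. MELO3C018539 stood at 182 at the high dose, against 1614 in mock (11.3%, a log2 of -3.14). MELO3C017999 stood at 254 at the high dose, against 1722 in mock (14.8%, a log2 of -2.76), and MELO3C029737 at 268 and 1616 (16.6%, a log2 of -2.59). These genes, named after their values had been seen, combined a mock value above the median of the group with a loss deeper than its lower quartile of 21.7%. Such losses were not confined to the members. Among the genes set aside by the rule, MELO3C031897 (9.68%), MELO3C002844 (17.6%), MELO3C006464 (18.1%) and MELO3C005818 (19.8%) also kept less than 20% of a mock value above 1000.

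At the upper end of the group the high-dose values stayed far from 0. MELO3C020274 had the highest mock value of the group and stood at 7768 at the high dose, against 34435 in mock, so 22.6% remained, a log2 of -2.15. The next members were MELO3C003120 (5079 at the high dose and 15766 in mock), MELO3C013745 (3764 and 12974), MELO3C018882 (3874 and 11617) and MELO3C031563 (3400 and 10014). They kept 29.0% to 34.0% of the mock value, near the edge set by the rule. MELO3C020274 therefore stood apart from its neighbours both in its mock value and in its loss.

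The remaining members of the 10 with the highest mock values lay within a narrow band of 8740 to 9527 in mock. They were MELO3C015961 (3299 at the high dose and 9527 in mock), MELO3C027406 (2561 and 8863), MELO3C013082 (3025 and 8752), MELO3C025211 (2300 and 8748) and MELO3C023497 (2786 and 8740). Of these, MELO3C025211 kept the least, 26.3%, and MELO3C015961 the most, 34.6%. The lowest high-dose value of the 10 was 2300, so the members with the highest signal in mock were lowered but far from 0. Under median ratio scaling the 10 had log2 values from -1.36 to -0.74, none of them past -1.5.

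**Figure D4:**
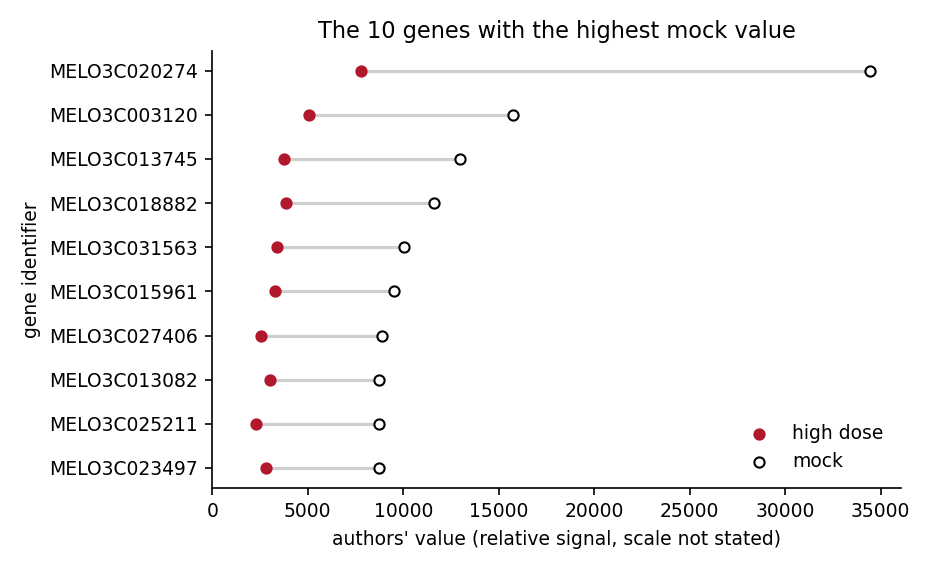
Authors' value (x axis, relative signal, starting at 0) in high-dose radicles (red) and mock radicles (open circles) for the 10 members with the highest mock value. MELO3C020274 is at 7768 at the high dose and 34435 in mock, and the other 9 genes lie between 2300 and 5079 at the high dose and between 8740 and 15766 in mock.

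Summed over the group, the signal was 93100 at the high dose and 311543 in mock, so 29.9% remained. The 1807 lowered genes together, members included, kept 52.9%, and the rule itself places the members at their lower end. The members are 8.69% of these lowered genes, held 4.18% of their mock signal and accounted for 6.22% of the signal they lost. Within the group MELO3C020274 alone made up 12.2% of the summed loss and the 10 largest losses 41.9%. These were the 10 genes with the highest mock values, so the concentration goes with the mock level. The same shares were not computed over the 1807 lowered genes, and all these sums rest on a signal whose scale is not given. The order of the members was nearly the same in both groups of radicles, with a Spearman correlation of 0.989 between the high-dose and the mock values over the 157 genes, which describes the selected genes and is no test.

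No function can be given for these genes here. Of all 2943 MELO3C identifiers on the high-dose list, members included, 0 were found in the RefSeq gene table of melon, which is of another assembly. The paper describes a set of selected genes, and 0 of the members are in it. Of that set, 8 genes were on the high-dose radicle list. The one of those 8 that was below mock, the peroxidase MELO3C002457 (peroxidases use hydrogen peroxide to oxidize other molecules), was no member, as it was on the mock seed list and had a log2 of -1.05. The other 7 were above mock. Gene families and pathways were therefore not counted, and the labelled tissue could not be checked against marker genes.

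The numbers of the identifiers were the one further feature that could be examined. Identifiers from MELO3C028000 upwards made up 29 of the 157 members (18.5%), 55 of the 1650 other lowered genes (3.33%) and 223 of the 882 genes above mock (25.3%). Their share was thus greater among the members than among the other lowered genes, but smaller than among the genes above mock. The excess over the other lowered genes was also seen within wide ranges of the mock value, which do not hold the level equal. From 100 to 1000 in mock, 15 of 76 members (19.7%) and 12 of 178 other lowered genes (6.74%) had such identifiers. These 15 and 12 genes had mock medians of 340 and 765. From 1000 upwards such identifiers made up 7 of 62 members (11.3%) and 43 of 1472 other lowered genes (2.92%). The members with these high numbers had a median of 340 in mock and kept a median of 25.3%, whereas those with lower numbers had a median of 804 and kept 29.7%. The limit of 28000 was chosen after the values had been seen, none of these shares was tested against another, and what sets these gene models apart was not tested.

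**Figure D5:**
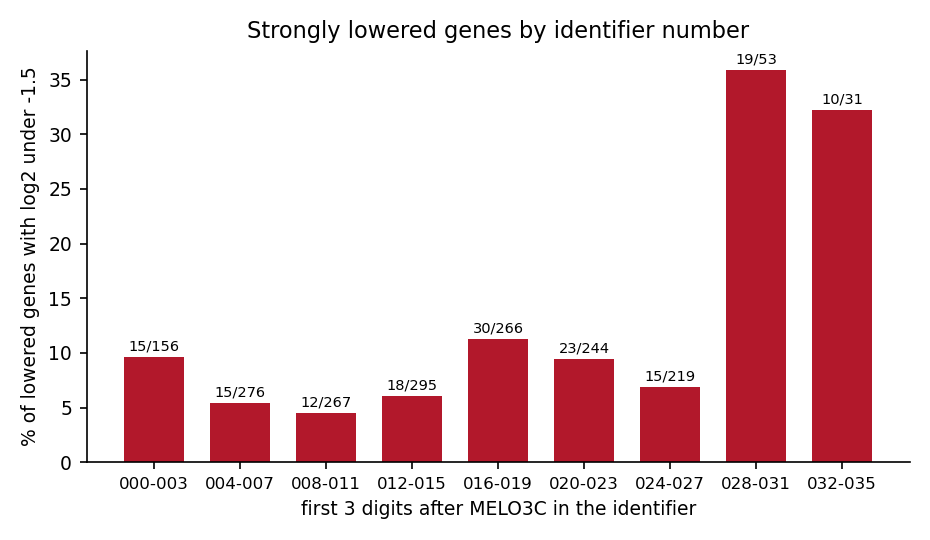
Share of the lowered genes on neither other list that were members (y axis, %) by the first 3 digits of the identifier number (x axis), with the number of members and of lowered genes above each bar. The bands 028-031 and 032-035 stand at 35.8% and 32.3%, and the 7 bands below them between 4.49% and 11.3%. These high bands hold few lowered genes (53 and 31). Over all genes of the high-dose list on neither other list, 19 of 178 and 10 of 129 were members there. That compares with 30 of 364 for the numbers 16000 to 19999 and 12 of 358 for 8000 to 11999. The contrast is thus much smaller over all listed genes, and the band 032-035 does not stand out.

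Close identifier numbers occurred among the members in 5 runs of 14 genes, in which each number was at most 10 from the next. The longest run held MELO3C017343, MELO3C017345, MELO3C017352 and MELO3C017358, which kept 25.5% to 34.1% of mock, and these were 4 of the 7 genes on the high-dose list alone in that stretch of numbers. MELO3C031605, MELO3C031612 and MELO3C031615 were all 3 such genes in theirs and kept between 6.02% and 34.0%. MELO3C029737, MELO3C029740 and MELO3C029750 kept 16.6% to 29.9%. Neighbours within 10 numbers were counted anew for each gene, so the counts are of pairs and a gene can recur. Of 260 pairs of a member and a neighbour, the neighbour was a member in 22 (8.46%), which involve 14 members. Over the pairs of all 2689 genes the share was 5.23%. The neighbour was lowered by any amount in 179 of the 260 pairs (68.8%) for the members, compared with 70.3% of the pairs for all 2689 genes. The files give no positions, so whether close numbers mean adjacent genes was not examined, and these genes were also named after their values had been seen.

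The absence of these genes from the low-dose list says only that they were not selected there. None has a low-dose value here, so nothing can be said of whether they were lowered at the low dose.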

How the data were processed

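The series holds 12 RNA libraries of melon radicles and seeds. The 6 groups have 2 libraries each, called biological duplicates in the paper. Groups were taken from the sample titles. Per the study's methods, libraries were rRNA-depleted and directional, about which the labels differ by naming polyadenylated RNA, and alignment was to the v4 genome of melon cv. DHL92. Bowtie2 and SAMtools appear in the submitters' processing notes. The authors deposited 6 lists with 1 value per gene and group, of which 4 were used. These deposited values, named FPKM, were taken as a relative signal whose scale is not given, because the same low values recur in many genes. Without read counts in them, the depth behind a value is unknown and no interval was computed.

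Values under 1e-10 were set to 0 and differences taken as log2((high dose + 1)/(mock + 1)). No test was run, as planned for 1 value per group. Members and settings were chosen with earlier results of these data known. Named genes are the 10 lowest log2 values, the 10 highest and 5 lowest mock values, the 5 lowest percentages above 0, those at 0 at the high dose and 3 on each side of the threshold, beside those said to be named later. Gene groups by description could not be formed, since 0 identifiers matched the gene table. The selection of members was tested on simulated data. Scripts ran in Python 3.11.15 with numpy 2.4.6, pandas 2.3.3, matplotlib 3.10.9 and scipy 1.17.1.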

Additional observations from a re-analysis of the deposited data

How the results depend on the processing

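No paired analysis was possible because each group has a single combined value, and for the same reason leaving out each replicate was not run. As listed, the rule gave 157 genes with a median log2 of -1.81. Under median ratio scaling, by which the listed genes above 0 in both groups lose their median log2 of -0.79, there were 36 genes under -1.5 and the median was -1.03 over the 157 members. All 157 stayed below mock under it, as the shift is smaller than the loss of every member. Members at 0 at the high dose do not move under it. A log2 threshold of -1 gave 705 genes and one of -2 gave 59, through the bound itself. Quantile normalization gave 120 genes, of which 98 were members, and a median of -2.06 over the 157 members. A pseudocount of 0.1, a pseudocount of 10, minimums on the mock value, keeping the genes on the other lists and setting values under 0.1 to 0 gave counts from 138 to 177. No pseudocount (158 genes) and a high-dose value of at least 10 (141 genes), both added after the data were seen, also stayed within 1.5 times. Without the 7 members at 0 the median was -1.78. Of the 28 genes named by rule, 18 moved by over 1.5 times under median ratio scaling, 14 under quantile normalization, 12 with a pseudocount of 10 and 10 with one of 0.1, and 0 changed direction under the scalings. Whether either scaling is apt for lists of selected genes was not tested.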

Other observations

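The rule set aside 20 MELO3C genes that were also under a log2 of -1.5 at the high dose, 16 of them on the low-dose radicle list and 5 on the mock seed list. Their high-dose values were a median of 26.6% of mock. The lowest was MELO3C030347, on the mock seed list, with a high-dose value of 0 and a mock value of 989, a far higher mock value than that of any member at 0. MELO3C030999 stood at 1.70 at the high dose, against 44.2 in mock. The 16 genes on the low-dose list had high-dose values at a median of 28.3% of mock and low-dose values at a median of 39.6%, both against the same mock values, and in 15 of them the low-dose value was the higher of the treated values. These genes were chosen by a bound on the high-dose value, with no such bound on the low-dose value. That choice favours a higher low-dose value, so an effect of dose cannot be read from it. MELO3C031897 stood at 2812 at the high dose, 6145 at the low dose and 29044 in mock.

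Of 163 loci with an XLOC identifier on the high-dose list, 5 (3.07%) were under -1.5. XLOC_031706 stood at 2.95 at the high dose, against 625 in mock (0.471%), and XLOC_006243, which was also on the low-dose list, at 123 and 1888 (6.50%). The members with a mock value of 1000 or more all kept 11.3% or more.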
